A study of Mus musculus with 192 samples.

Results

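Chaperones of the endoplasmic reticulum (ER) and of the cytosol were followed at their transcription start sites in single mouse embryonic fibroblasts (MEFs), connective-tissue cells grown from mouse embryos. The set held 10 genes, of 11730 genes with a tag by the same rule. A total of 6 encode ER proteins (Hspa5, Hsp90b1, Calr, Canx, Pdia3 and Pdia6) and 4 encode cytosolic proteins (Hspa8, Hsp90aa1, Hsp90ab1 and Dnaja1). A gene's value came from the deposited start-site windows of 150 bp that the RefSeq annotation table gives to it within 1000 bp of an annotated start, 192 of 553094 windows, and from peaks on the gene's own strand only. All 10 had tags in both groups. In this assay the 5′ ends of polyadenylated RNA are sequenced, so a tag is a read that marks a start, and a level does not depend on the length of the gene.

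Both groups were C57BL/6 MEFs, cultured on uncoated plastic in serum-containing medium, and both received interferon-beta, an antiviral cytokine, at 100 U/ml for 1 h before harvest. One group is labelled naive and the other pretreated, with the agent and timing of the pretreatment left unnamed in the labels. The series set out to find genes that use more than one start under interferon. Of 192 cells, 96 in each group, 92 naive and 85 pretreated cells passed a filter on depth. Each deposited sample is 1 cell and no animal, culture or plate is named, so each group counts as 1 sample. No difference between the groups was tested, none has a replicate check, and intervals cover counting error only.

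Molecular chaperones bind unfolded proteins and release them in cycles driven by ATP. In the ER, Hspa5 (BiP) and Hsp90b1 (GRP94) receive newly made secretory proteins, calreticulin and calnexin hold glycoproteins through their sugars, and the protein disulfide isomerases Pdia3 and Pdia6 form and rearrange disulfide bonds. Unfolded protein in the ER activates the unfolded protein response, which raises many of these genes through a promoter sequence called the ER stress response element (ERSE). In the cytosol, Hspa8 is the constitutive member of the Hsp70 family, Dnaja1 is a J-domain partner that stimulates Hsp70, and Hsp90aa1 and Hsp90ab1 are the inducible and the constitutive Hsp90.

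The promoters of 5 of the 6 ER members carry a shared sequence, and promoters are shown because the tags of this assay mark starts. RefSeq promoter sequences (build GRCm38.p6) matched 7 of the 10 members, and Hspa8, Hsp90aa1 and Hsp90ab1 had no entry. Below are the 250 bases before the RefSeq start of 7 members, 5′ to 3′ on the gene's strand. Capitals mark a match to the ERSE, searched on both strands as CCAAT, any 9 bases and CCACG, or to a pair of heat shock units, searched as GAANNTTC. They come from chr2:34771840-34772089 (+ strand) for Hspa5, chr10:86705445-86705694 (- strand) for Hsp90b1 and chr8:84846932-84847181 (- strand) for Calr. Those of the other four lie at chr11:50325674-50325923 (- strand) for Canx, chr2:121413652-121413901 (+ strand) for Pdia3, chr12:17266339-17266588 (+ strand) for Pdia6 and chr4:40722218-40722467 (+ strand) for Dnaja1, the most upstream of its 3 entries.
Hspa5: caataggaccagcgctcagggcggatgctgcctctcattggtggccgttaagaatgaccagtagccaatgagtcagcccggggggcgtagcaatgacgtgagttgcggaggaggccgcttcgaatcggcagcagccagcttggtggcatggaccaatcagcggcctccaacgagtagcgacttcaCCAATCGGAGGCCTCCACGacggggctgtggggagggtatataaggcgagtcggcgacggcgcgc
Hsp90b1: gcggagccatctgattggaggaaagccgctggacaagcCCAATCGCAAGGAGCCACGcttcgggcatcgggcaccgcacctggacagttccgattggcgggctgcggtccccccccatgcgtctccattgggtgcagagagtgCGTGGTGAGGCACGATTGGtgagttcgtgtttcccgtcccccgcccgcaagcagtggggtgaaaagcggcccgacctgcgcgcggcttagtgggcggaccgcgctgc
Calr: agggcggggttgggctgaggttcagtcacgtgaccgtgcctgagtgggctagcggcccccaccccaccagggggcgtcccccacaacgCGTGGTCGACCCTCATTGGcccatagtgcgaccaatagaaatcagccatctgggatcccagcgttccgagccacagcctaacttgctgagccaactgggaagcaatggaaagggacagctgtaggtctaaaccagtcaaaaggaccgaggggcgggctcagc
Canx: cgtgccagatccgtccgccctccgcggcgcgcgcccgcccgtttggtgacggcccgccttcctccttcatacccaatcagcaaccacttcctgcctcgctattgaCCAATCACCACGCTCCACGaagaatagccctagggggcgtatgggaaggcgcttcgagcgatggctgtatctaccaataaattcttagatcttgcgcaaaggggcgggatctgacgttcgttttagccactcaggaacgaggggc
Pdia3: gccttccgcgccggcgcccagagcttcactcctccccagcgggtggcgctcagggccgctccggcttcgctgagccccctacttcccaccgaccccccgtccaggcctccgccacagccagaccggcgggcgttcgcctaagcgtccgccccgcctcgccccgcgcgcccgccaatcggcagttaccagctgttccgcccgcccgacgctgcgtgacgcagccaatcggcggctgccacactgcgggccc
Pdia6: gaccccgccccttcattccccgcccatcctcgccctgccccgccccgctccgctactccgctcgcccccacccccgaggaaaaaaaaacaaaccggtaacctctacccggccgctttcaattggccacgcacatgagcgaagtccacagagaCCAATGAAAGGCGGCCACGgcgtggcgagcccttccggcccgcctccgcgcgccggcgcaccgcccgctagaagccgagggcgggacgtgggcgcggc
Dnaja1: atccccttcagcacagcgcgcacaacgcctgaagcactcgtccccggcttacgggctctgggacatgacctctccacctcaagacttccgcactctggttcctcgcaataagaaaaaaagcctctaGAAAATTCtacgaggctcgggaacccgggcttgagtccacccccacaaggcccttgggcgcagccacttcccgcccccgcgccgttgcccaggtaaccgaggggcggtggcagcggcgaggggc

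An ERSE match was present in 5 of the 6 ER members and absent from these letters in Pdia3. It began at base -65 from the start in Hspa5, -98 in Pdia6 and -145 in Canx. In Calr it began at -162, on the opposite strand. Hsp90b1 had a pair, at -212 and, on the opposite strand, at -107. Of all 32851 promoters of the same length, 0.113% held this motif. Among 33 other ER folding genes with a promoter entry, 5 held it (Creld2, Derl3, Dnajc3, Ero1b and Syvn1), and among 35 other cytosolic folding genes none did. Every ER member held a CCAAT box (CCAAT, which the ERSE contains), as did 33.8% of all promoters. The heat shock pair was found in the Dnaja1 entry shown above, beginning at -124, and not in the other entries of that gene. Of all promoters 6.69% held this pair. Of the 35 other cytosolic folding genes 8 held it, and of the 33 other ER folding genes none did. The core of the interferon-stimulated response element, searched on both strands as GAAA, any 2 bases and GAAA, was found in none of the 7 and in 2.98% of all promoters. These matches describe letters in a window and not sites in use. The start windows below are on another build, so no base of these promoters is tied to a window.

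The median total was 2305627.5 tags in naive cells (305066 to 3857034) and 2650490 in pretreated cells (502374 to 13174313), and peaks held 90.1% and 84.6% of the tags. No cell repeated the totals of another. Of 12 fibroblast markers 11 had tags, summing to 8058 tags per 1000000 gene tags (CPM) in naive and 9153 CPM in pretreated cells. Sparc alone gave 5435 and 6238 CPM, and 6 of the 12 reached 50 CPM in a group. Pdgfra was at 17.9 and 4.14 CPM, Dcn at 5.76 and 0.838, and Thy1 at 1.24 and 0. All epithelial, erythroid and muscle markers were at 0, macrophage markers summed to 28.5 and 35.1 CPM, and endothelial markers to 0 and 4.51 CPM.

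The cytosolic members as a group had a lower share of the tags in pretreated cells, while the sum of the ER members differed little. The 6 ER members took 0.594% of gene tags in naive and 0.644% in pretreated cells, a log2 ratio (pretreated over naive) of 0.12. That is below the median of all genes (0.21), and median-of-ratios scaling turned its sign, to -0.010. The 4 cytosolic members took 0.792% and 0.462%, a log2 ratio of -0.78. With only windows frequent in both groups (listed by 20% or more of naive and of pretreated cells), which leave out Canx, Hsp90aa1 and Dnaja1, the ER sum was at 1.10 and the cytosolic sum at -0.083. All 10 together took 1.39% and 1.11%, a log2 ratio of -0.33. In single cells the summed cytosolic level ran from 2265 to 14994 CPM with a median of 7312 in naive cells, and from 491 to 11761 with a median of 4384 in pretreated cells. The ranges of the groups overlap, and the middle 50% of the cells do not, at 6054 to 9096 against 3593 to 5432 CPM. For the ER sum the medians were 5749.8 and 6751 CPM, with middle ranges of 4472 to 7158 and 4915 to 8234.

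All 10 members reached 50 CPM in a group, the level used for comparison with other genes. A gene could pass through either group, and Hsp90aa1 and Dnaja1 passed through naive cells alone. Among the 3073 genes that passed, 21.2% were at least 2-fold higher and 13.1% at least 2-fold lower in pretreated cells. Of the members, 1 was at least 2-fold higher (Pdia3) and 4 were at least 2-fold lower (Hspa5, Hspa8, Hsp90aa1 and Dnaja1). The median log2 ratio was -0.36 over the members, 0.21 over the ER members, -2.62 over the cytosolic members and 0.21 over all genes. The log2 ratios of the 5 ER members with an ERSE match differed in sign, from -1.17 (Hspa5) to 0.87 (Canx), and Pdia3, without a match, was at 1.11. The calls of Hspa5 and Hspa8 did not hold under every scaling: with the mean deposited value per cell their log2 ratios were -0.91 and -0.96, and Pdia3 was at 0.99 with median-of-ratios scaling. Those scalings moved the median of all genes by 0.18 and -0.13.

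**Figure D1:**
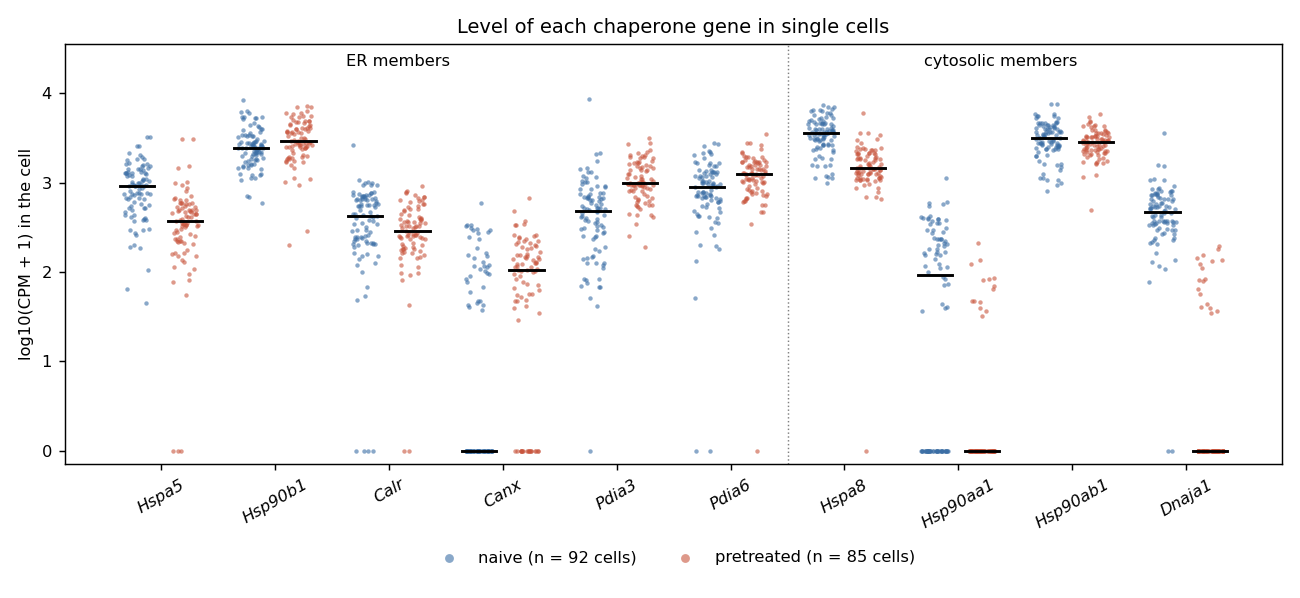
Level of each of the 10 chaperone genes in every kept cell, as log10(CPM + 1) on the vertical axis, with blue points for the 92 naive cells, red points for the 85 pretreated cells and a black bar at the median. Points at 0 are cells with no listed peak. Dnaja1 and Hsp90aa1 are at 0 in most pretreated cells (67 and 71 of 85).

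Hspa5 was lower in pretreated cells. Its level in single naive cells ran from 44.3 to 3247 CPM with a median of 914, and in pretreated cells from 0 to 3106 with a median of 367. The pooled levels were 1024 and 456 CPM, 2.25-fold lower (log2 ratio -1.17), and 11.3% of genes had a lower ratio. The groups overlap in range, but 81 of 92 naive cells lay above the pretreated median and 7 of 85 pretreated cells above the naive median. A single pretreated cell gave 10.7% of the tags of its group, and without the highest cell of each group the log2 ratio was -1.26.

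Hsp90b1 was the most abundant ER member in both groups and differed little between them. Its level ran from 594 to 8305 CPM with a median of 2448 in naive cells and from 201 to 7218 with a median of 2901 in pretreated cells. It was listed in all 92 and all 85 cells. The pooled levels were 2841 and 3119 CPM (log2 ratio 0.13), and 46.6% of genes had a lower ratio. Its similar level hides a different position of the leading peak in the groups, described below.

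The lectin-like chaperones went apart. Calr, the soluble one, ran from 0 to 2631 CPM with a median of 425 in naive cells and from 0 to 905 with a median of 287 in pretreated cells, and 8 naive cells lay above the highest pretreated cell. Its pooled levels were 450.4 and 322 CPM (log2 ratio -0.48). Canx, its membrane-bound relative, was listed in 38 of 92 naive cells and 66 of 85 pretreated cells. It ran from 0 to 587 CPM with a median of 0 in naive cells and from 0 to 678 with a median of 104 in pretreated cells. Its pooled levels were 70.9 and 129 CPM (log2 ratio 0.87), short of a 2-fold difference. The ratio was 0.25 under the GENCODE table, and 0.54 if every cell without a listed peak is given the caller's minimum of 200 tags per 10000000. Cells that listed Canx and cells that did not had similar median totals in the naive group, 2378450.5 and 2295186 tags, while in the pretreated group they had 2887105.5 and 2212079.

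Pdia3, a disulfide isomerase that works with calreticulin and calnexin, was the one member at least 2-fold higher in pretreated cells. Its level ran from 0 to 8627 CPM with a median of 484 in naive cells and from 191 to 3109 with a median of 976 in pretreated cells. Its pooled levels were 551 and 1191 CPM (2.16-fold, log2 ratio 1.11), and 78 of 85 pretreated cells lay above the naive median. The call was lost when every cell was weighted alike (log2 ratio 0.86). Pdia6, the isomerase that binds Hspa5, ran from 0 to 2763 CPM with a median of 891 in naive cells and from 0 to 3481 with a median of 1249.7 in pretreated cells. The pooled levels of Pdia6 were 1003 and 1221 CPM (log2 ratio 0.28), close to the median of all genes, but 0.99 with windows frequent in both groups only, where the median of all genes was -0.010.

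Among the cytosolic members, Hspa8 and Dnaja1 form a chaperone and partner pair, and both were lower in pretreated cells. Hspa8 ran from 981 to 7402 CPM with a median of 3607 in naive cells and from 0 to 5953 with a median of 1453 in pretreated cells. Only 1 of 85 pretreated cells lay above the naive median, and 86 of 92 naive cells lay above the pretreated median. Its pooled levels were 3775 and 1662 CPM, 2.27-fold lower (log2 ratio -1.18).

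Dnaja1 had the greatest difference of the 10. It was listed in 90 of 92 naive cells and in 18 of 85 pretreated cells. It ran from 0 to 3619 CPM with a median of 467 in naive cells and from 0 to 193 with a median of 0 in pretreated cells. A total of 84 naive cells lay above the highest pretreated cell, so the groups hardly overlap. The pooled levels were 501 and 18.6 CPM, 26.9-fold lower (log2 ratio -4.75, counting interval -4.80 to -4.70), and 0.814% of genes had a lower ratio. The interval takes each tag as a separate count, although no molecular identifiers are named. A single pretreated cell held 25.2% of the Dnaja1 tags of its group, and without the highest cell of each group the log2 ratio was -5.07. The ratio of -4.75 counts cells without a listed peak as 0, although the lowest listed pretreated cell was at 33.9 CPM. With the caller's minimum given to each such cell the levels would be 502 and 45.6 CPM (log2 ratio -3.46), so the size of the fold depends on the peak threshold. The 67 pretreated cells without a listed peak had a median total of 2683667 tags, against 2174266.5 in the 18 cells with one. The part of depth in this was not tested.

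The Hsp90 pair was split. Hsp90ab1 was listed in every cell and ran from 813 to 7517 CPM with a median of 3157 in naive cells and from 491 to 5808 with a median of 2872 in pretreated cells. The pooled levels of Hsp90ab1 were 3466 and 2927 CPM (log2 ratio -0.24). Hsp90aa1 was listed in 54 of 92 naive cells and in 14 of 85 pretreated cells. It ran from 0 to 1113 CPM with a median of 92 in naive cells and from 0 to 210.2 with a median of 0 in pretreated cells, and 28 naive cells lay above the highest pretreated cell. The pooled levels of Hsp90aa1 were 176 and 10.6 CPM, 16.6-fold lower (log2 ratio -4.05). A single pretreated cell held 29.9% of its tags in that group, and without the highest cell of each group the log2 ratio was -4.40. With the caller's minimum given to each cell without a listed peak it was -2.29. Naive cells that listed Hsp90aa1 were deeper than those that did not, with median totals of 2781780.5 and 1959774.5 tags, and the part of depth in this share was not tested.

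**Figure D2:**
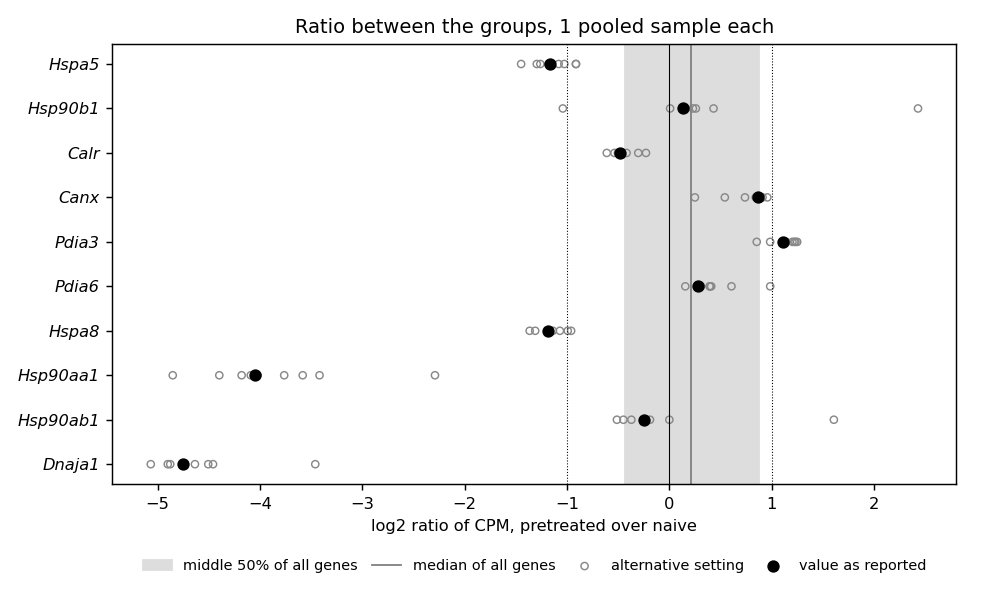
Log2 ratio of CPM, pretreated over naive, for each of the 10 genes on the horizontal axis, with the reported value as a black dot and each alternative setting as an open circle. The grey band is the middle 50% of all 3073 genes and dotted lines mark a 2-fold difference. Dnaja1 and Hsp90aa1 lie left of the 2-fold line under every setting that gave a value, while open circles of Hsp90b1 and Hsp90ab1 fall on both sides of 0.

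The order of the members by level differed between the groups. In naive cells it ran Hspa8, Hsp90ab1, Hsp90b1, Hspa5, Pdia6, Pdia3, Dnaja1, Calr, Hsp90aa1 and Canx. The middle 50% of cells overlap between all neighbours in that order, except between Hsp90b1 (1809.8 to 3300.4 CPM) and Hspa5 (521 to 1293 CPM). In pretreated cells the order was Hsp90b1, Hsp90ab1, Hspa8, Pdia6, Pdia3, Hspa5, Calr, Canx, Dnaja1 and Hsp90aa1. There the middle ranges of neighbours were apart between Hsp90ab1 and Hspa8, between Pdia3 and Hspa5, narrowly between Calr and Canx, and between Canx and Dnaja1.

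Several members also had their leading peaks at different positions in the groups. Distances are those of the window from the annotated RefSeq start, as the deposited table gives them, and windows are on build mm9. The peak caller kept peaks on a strand at least 300 bp apart, so a cell lists mostly 1 peak near a start. A window listed in no cell of a group therefore had no peak centred there, and its tags may lie inside a peak of 150 bp centred nearby.

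Hsp90b1 was listed at +52 (chr10:86168063-86168212) in 58 of 92 naive cells, with 194856 tags, and in none of the 85 pretreated cells. At -17 (chr10:86168132-86168281) it was listed in 22 naive and 80 pretreated cells, with 63153 and 500841 tags. The windows lie 69 bp apart and overlap, and both are annotated as promoter of the Hsp90b1 transcript. Naive cells with the leading peak at +52 had a median level of 2571 CPM. Those with it at -17 had 2392 CPM, so the level was similar at either position. The median totals of these cells were also close, 2241945.5 and 2169667.5 tags.

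Dnaja1 was listed at +67 (chr4:40669494-40669643) in 88 of 92 naive cells, with 98.2% of its naive tags, and in no pretreated cell. The most frequent position in pretreated cells was +20, in 7 of 18 listed cells and in no naive cell. Windows within 50 bp of +67 held 99% of naive and 78.5% of pretreated Dnaja1 tags. The pretreated share came from windows at +19 to +38, and the window at +20, 47 bp from +67, held 59.3% of pretreated tags. These windows of 150 bp overlap the window at +67, and where their tags lie within them is not given.

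Hsp90aa1 was listed at +85 (chr12:111934446-111934595) in 44 naive cells, with 85.6% of its naive tags, and in no pretreated cell. Its 14 pretreated cells used 13 positions, and 45% of the pretreated tags were annotated to intron 1, against 0.334% of the naive tags. The pretreated leading window, 394 bp from the naive one, rests on 557 tags of 1 cell. With every cell weighted alike the windows of Hsp90aa1 lie 7 bp apart.

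Smaller shifts were seen in the abundant cytosolic pair. Hsp90ab1 was led by +1 (chr17:45710135-45710284) in 56 naive cells and by -5 in 36, while -5 led in 81 of 85 pretreated cells. Hspa8 was listed at 0 (chr9:40609285-40609434) in all 92 naive cells. In pretreated cells it was listed at 0 in 65 and at -3 in 18, a window with 48914 tags that no naive cell listed. Cells at -3 and at 0 had median Hspa8 levels of 1523 and 1447 CPM.

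The other ER members kept the same leading window. Hspa5 led at +3 in 80 of 92 naive and 56 of 82 listed pretreated cells, with +5 next in 22 pretreated cells. Pdia3 led at +48 in 73 and 70 cells, and Canx at +55 in 15 and 24 cells, spread over 13 and 16 positions. Pdia6 led at 0 in 42 and 56 cells, with +7 leading in 24 naive cells. Calr led at +65 in 40 and 41 cells, and exons held a further 23.4% of its naive and 23.6% of its pretreated tags, among them a window at +993 in exon 3 listed in 24 and 14 cells.

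Counted over the set, the leading windows lay over 50 bp apart in 2 of 10 members (Hsp90b1 and Hsp90aa1), against 10.2% of 3062 genes, and Dnaja1 was just under that limit at 47 bp. Of 14 member windows listed in at least 20% of naive cells, 3 were listed in no pretreated cell (Hsp90b1 +52, Hsp90aa1 +85 and Dnaja1 +67), against 8.51% of 1164 windows of all genes. In the other direction it was 1 of 11 (Hspa8 -3), against 4.43% of 1602 windows. Windows within 50 bp of Hspa8 -3 held 99.8% of naive and 99.9% of pretreated Hspa8 tags. Any counted window of Dnaja1 and Hsp90aa1 was listed in only 18 and 14 of 85 pretreated cells. The absence of their naive windows there is therefore not separate from their lower level. When the count was limited to windows that 20% or more of naive and of pretreated cells listed, Hsp90b1 stood at a log2 ratio of 2.43 and Hsp90ab1 at 1.61, since that setting leaves out Hsp90b1 +52 and Hsp90ab1 +1, and Canx, Hsp90aa1 and Dnaja1 had no such window.

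**Figure D3:**
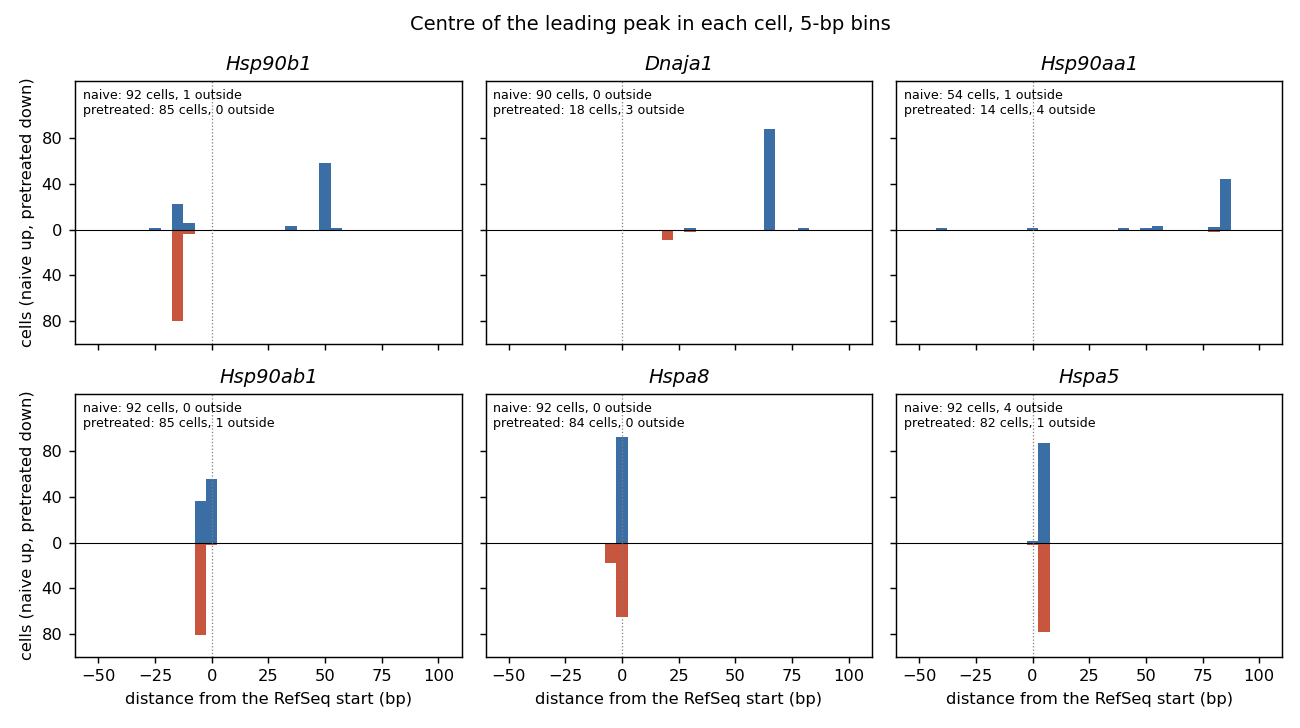
Number of cells (vertical axis, naive upward in blue, pretreated downward in red) by the distance in bp of the leading peak from the RefSeq start (horizontal axis, 5-bp bins) for 6 of the genes. Cells outside the plotted range are counted in each panel. Hsp90b1 has naive cells at +52 and -17 and pretreated cells nearly all at -17, and Dnaja1 has 88 naive cells at +67.

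The focus ratio, a fraction that the peak caller gives and that is higher where the tags of a peak sit closer together, was lower in pretreated cells for 9 of the 10 members. The background was the same, with 89.1% of 3062 genes lower, so the count says nothing particular of the set. Hsp90b1 had a median of 0.964 in naive and 0.723 in pretreated cells, and within naive cells it was 0.983 in those at +52 and 0.571 in those at -17. Hsp90ab1 showed the same split, with 0.931 at +1 and 0.620 at -5 in naive cells and 0.740 at -5 in pretreated cells. Pdia6 had the broadest starts, with medians of 0.820 and 0.558. Hspa8 was the exception, at 0.987 and 0.990.

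**Figure D4:**
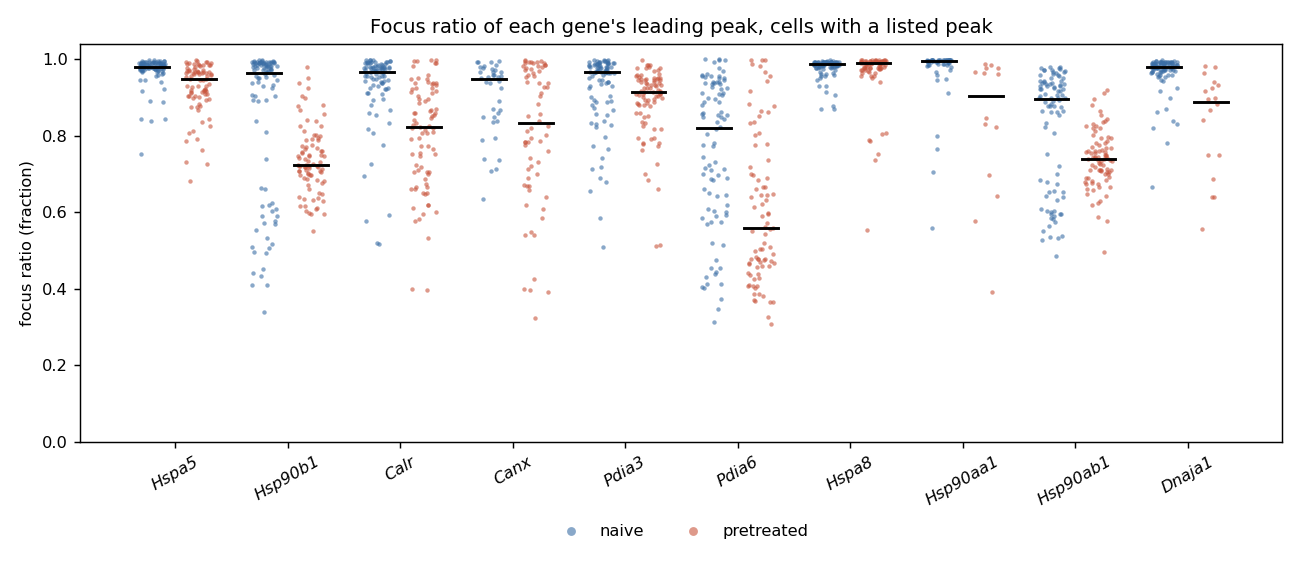
Focus ratio (fraction, vertical axis) of the leading peak of each gene in every cell that listed it, naive in blue and pretreated in red, with the median as a black bar. Naive cells of Hsp90b1 and Hsp90ab1 form an upper and a lower cloud, and the pretreated medians of 0.723 and 0.740 lie between the clouds.

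The distance limit of 1000 bp left out tags that the table gives to the members further inside the gene. For Calr the windows nearest the limit were at 998 bp (0 naive and 179 pretreated tags) and at 1003 bp (547 and 178 tags). Beyond the limit lay 30.4% of naive and 9.20% of pretreated Hsp90ab1 tags, and 33.3% and 26% of those of Hsp90aa1. For the remaining members the share beyond it ranged from 1.24% (Dnaja1) to 24.8% (Calr) in naive cells. With windows at any distance counted, Hspa5 and Hspa8 were at log2 ratios of -0.91 and -0.99, so both fell short of 2-fold.

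Reads of some members can be shared with near-identical copies. All 4 cytosolic members and none of the 6 ER members had a processed pseudogene with at least 95% identity over at least 35 of the first 200 transcript bases. Hspa8 had 4 copies, Dnaja1 3, and Hsp90aa1 and Hsp90ab1 2 each. The copies of Hsp90aa1 held 5389 naive and 43 pretreated tags, against 19487 and 1860 at the gene, so they too had more tags in naive cells. The copies of Hspa8 held 711 and 0 tags and those of Dnaja1 220 and 0. How the authors' alignment placed such reads is not given in the sources used here, so the levels of these 4 genes are uncertain to that extent. On the opposite strand to Hsp90b1, the gene Ttc41 had 160 tags in 2 pretreated cells, which the strand rule kept apart.

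From cell to cell the levels of the members were weakly related. Spearman correlations of CPM had a median of 0.14 in both groups over the 21 pairs of the 7 members listed in at least 80% of cells of each group, against 0.025 and 0.029 over 188805 such pairs of all genes. Over all members the median was 0.14 in both groups for pairs of ER members, 0.066 and 0.068 for ER with cytosolic members, and 0.096 and 0.052 for pairs of cytosolic members. The highest pair was Hsp90b1 with Calr in pretreated cells (0.46 over 85 cells, 0.26 over 92 naive cells), followed by Hspa8 with Hsp90ab1 (0.46 and 0.36). Hspa5 and Hsp90b1 stood at 0.39 in both groups. All values of a cell share its library and depth, and correlations of this size in sparse tags are given as a description. The summed cytosolic level had a Spearman correlation of -0.51 with the median focus ratio of the cell in pretreated cells and -0.14 in naive cells.

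By the mean of the correlations within the 2 groups, the genes most like the ER sum among 608 candidates were Selenos (0.29), Manf (0.28), Myl12a (0.28), Pdia4 (0.25) and Reep5 (0.24). For the cytosolic sum they were Rps24 (0.42), Tubb6 (0.42), Nme1 (0.41), Npm1 (0.41) and Ncl (0.41). That sum, 7919 CPM in naive and 4618 CPM in pretreated cells, was mostly Hspa8 (3775 and 1662 CPM) and Hsp90ab1 (3466 and 2927 CPM). The likeness therefore describes mainly these members. The median over candidates was -0.012 and 0.064.

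Of 23 other ER folding genes past 50 CPM, 17 were higher and 6 lower in pretreated cells, and 7 were at least 2-fold higher and 1 at least 2-fold lower, with a median log2 ratio of 0.35. Of all 3073 genes, 1821 were higher and 1252 lower, and 21.2% were at least 2-fold higher and 13.1% at least 2-fold lower. Among the 7 ER folding genes at least 2-fold higher, Dnajc3, Creld2 and Fkbp10 reached 50 CPM only in pretreated cells. The 1 at least 2-fold lower, Os9, reached it only in naive cells. Dnajc3, which restrains a kinase of the unfolded protein response, was at 9.17 and 106 CPM (log2 ratio 3.53). Dnajb11, a J-domain partner of Hspa5, was at 52.3 and 197 CPM (1.91). Only 9 and 27 of 92 naive cells listed Dnajc3 and Dnajb11, and the others count as 0, so these ratios depend on the peak threshold. Os9, a lectin of ER-associated degradation, was at 122 and 37.8 CPM (-1.69), and the reductase Dnajc10 at 119.8 and 69.96 CPM (-0.78). Of 3 regulators of the unfolded protein response past 50 CPM, 1 was at least 2-fold higher and none at least 2-fold lower: the transcription factor Ddit3 was at 33.9 and 99.7 CPM (1.56) and Atf4 at 50.1 and 50.2 CPM (0.00). Ddit3 reached 50 CPM only in pretreated cells. It was listed in 28 of 92 naive and 73 of 85 pretreated cells, so its ratio also depends on the peak threshold.

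Of 22 other cytosolic folding genes past 50 CPM, 17 were higher and 5 lower, with a median of 0.45. Of these, 4 were at least 2-fold higher and none at least 2-fold lower, against 21.2% and 13.1% of all 3073 genes. Among the 4, Ptges3, Bag5 and Fkbp4 reached 50 CPM only in pretreated cells. Ptges3, the p23 cochaperone of Hsp90, was at 16 and 179.7 CPM (3.49), and Bag5, a nucleotide exchange factor of Hsp70, at 16.8 and 66.1 CPM (1.98). Only 13 and 10 of 92 naive cells listed Ptges3 and Bag5, and the others count as 0, so these ratios depend on the peak threshold. The lowest ratios of that list belonged to the cyclophilin Ppid (173 and 127 CPM, -0.45) and the small heat shock protein Cryab (166 and 149 CPM, -0.15). The genes that load peptides onto MHC class I molecules, a task in which Calr and Pdia3 take part, had a higher median than both. Of 5 past 50 CPM, 4 were at least 2-fold higher and none at least 2-fold lower, with a median of 4.05. Only B2m (462 and 3739 CPM, 3.02) reached 50 CPM in naive cells too. The others passed through pretreated cells alone, where they were higher, so the count and the median lean towards high ratios. H2-K1 was at 10.1 and 533 CPM (5.72), with reads that related class I genes may share. It was listed in 7 of 92 naive cells, so its ratio also depends on the peak threshold. Tapbp, which brings class I molecules into the loading complex, was at 46.2 and 56.4 CPM (0.29).

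**Figure D5:**
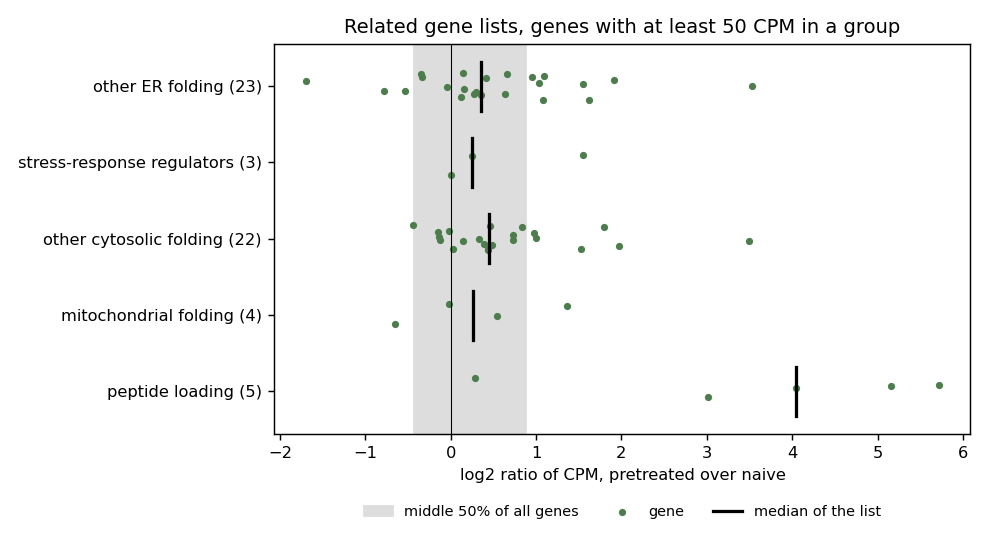
Log2 ratio of CPM, pretreated over naive (horizontal axis), of single genes in 5 related lists, each row giving a list with its number of genes past 50 CPM in a group. Green points are genes, black bars the median of a list and the grey band the middle 50% of all genes. The other folding lists have medians from 0.25 to 0.45 and peptide loading has 4.05.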

How the data were processed

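Single-cell start-site libraries of 192 cells were analysed. Per the submitters' processing notes, reads were handled with Bowtie2 and HOMER on mm9, versions not given in the sources used here. Per the file headers, the authors called peaks in each cell and strand with HOMER findPeaks in start-site mode: width 150 bp, spacing 300 bp, at least 200 tags per 10000000, 2-fold over the local 10000 bp and a Poisson p of 0.0001. Each peak's deposited signal counts tags per 10000000, per the file headers, and the deposited focus ratio is a fraction. Only called peaks are listed, so a gene at 0 in a cell is a gene with no listed peak there. Duplicate handling is not stated and no molecular identifiers are named.

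The planned tags were recovered from the signal as value times header total over 10000000. Within 0.1 tag or rounding, the result was whole for 1082504 of 1082504 peaks, and their 426263116 tags equal the header sums. Each peak went to the window whose start lay within 2 bp. Gene strands came from the RefSeq table for 21258 of 25056 transcripts, otherwise from GENCODE vM21 by symbol and chromosome. Cells under 10% of the median total (230562.75 tags) were left out, 4 naive and 11 pretreated. Sums over cells were scaled to CPM of gene tags found by the same rule, and log2 ratios had 0.5 tag added. Shares of listed cells are given unthinned, since only called peaks are deposited and thinning them cannot restore or remove a call. Intervals are exact (Poisson or Clopper-Pearson, 95%). Ratios were tested on simulated data. Of 2 deposited matrices, 384 unnamed per-cell columns were not used.

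The members and lists were chosen with earlier results of these data known. All members are named. Of each other list, the 2 genes with the highest and the 2 with the lowest ratio past 50 CPM are named (1 and 1 where fewer than 6 pass), and the 5 genes most like each summed level. Tools were Python 3.11.15, numpy 2.4.6, pandas 2.3.3, scipy 1.17.1, matplotlib 3.10.9 and blastn 2.17.0+. Alternatives covered scaling, weighting of cells, filters, distance, strand, start windows and annotation.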

Additional observations from a re-analysis of the deposited data

Results flagged for a closer look

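Signal outside the counted windows was looked at separately. On the strand opposite to the members and within 1000 bp of their starts, peaks held 1377 tags in naive and 1321 in pretreated cells, 0.0898% and 0.0681% of the sense tags of the set. For single genes the share was 1.41% for Calr and 1.17% for Canx in naive cells and 22.2% for Hsp90aa1 in pretreated cells, the last from 412 tags in 1 cell. Beyond 1000 bp, windows named for the members held 282930 tags in naive and 154500 in pretreated cells. Most of the naive excess was at Hsp90ab1, with 167349 and 52040 tags. No cause of either signal was tested.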

How the results depend on the processing

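No member called at least 2-fold higher or lower was called the opposite way under any alternative that gave a value. The summed and median log2 ratios of the set did change sign, to positive, with only windows frequent in both groups. The summed, median, higher and lower values of the report (-0.33, -0.36, 1 and 4) moved as follows. Median-of-ratios scaling gave a summed log2 ratio of -0.45, a median of -0.49 and 0 members higher. The mean deposited value gave -0.074, -0.15 and 2 lower. Weighting every cell alike gave -0.27, -0.33, 0 higher and 1 member with leading windows over 50 bp apart. Windows within 200 bp gave -0.31 and -0.39, and leaving out the highest cell of each gene gave a sum of -0.32. The GENCODE table gave -0.52 and -0.77, with 5 lower. Windows at any distance, chosen after seeing the data, gave -0.28, -0.43 and 2 lower. Windows frequent in both groups gave 0.45, 0.99, 3 higher and 2 lower over the 7 members that had one, because most naive tags of Hsp90b1 and Hsp90ab1 lie outside them. Among single genes the sign changed for Hsp90b1 in 1 of 11 alternatives (-1.04 to 2.43) and for Hsp90ab1 in 2 of 11 (-0.51 to 1.61). Dnaja1 stayed between -5.07 and -3.46 and Hsp90aa1 between -4.85 and -2.29 over 10, the smallest sizes with the minimum signal given to cells without a peak, a setting chosen after seeing the data like those of the ER and cytosolic sums. No paired analysis was possible because nothing was tested and cells with equal numbers share only that number. Genes near the minimum signal of a peak, such as Canx, Hsp90aa1 and Dnaja1 in pretreated cells, may be present in cells that list no peak.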

Other observations

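The GENCODE table gives the start windows of Hsp90b1 another name. It assigns them to the annotated microRNA Gm25745, of which 133 bases match the first 200 bases of the Hsp90b1 transcript, and the windows so named held 315581 naive and 548847 pretreated tags. The value of -1.04 for Hsp90b1 under that table therefore leaves out its main start. In the RefSeq table the Pdia3 windows keep the gene name Pdia3 but carry the promoter label of a neighbouring transcript. Among mitochondrial folding genes, Hspd1 (Hsp60) was at 1333 and 846 CPM (log2 ratio -0.66) and Hspa9, the mitochondrial Hsp70, at 100.3 and 259 CPM (1.37), so the Hsp70 of the mitochondrion and Hspa8 of the cytosol had ratios of opposite sign.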
